A study of Mus musculus with 32 samples.

Results

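The 94 protein-coding mouse genes whose symbols begin with Kcn, the family of potassium channel subunits, were followed through 32 bulk RNA-seq libraries of parathyroid gland cells. They were taken by symbol from the 35458 genes of the tables, and the other 5 annotated Kcn symbols, all antisense transcripts, were left out. The study compared native parathyroid cells with cells grown from mouse embryonic stem cells (ESCs) in hosts that cannot form a parathyroid gland of their own. Each library held 10 to 20 hand-picked cells that fluoresced red from a tdTomato reporter in the parathyroid hormone gene Pth, and each of 8 experiments had 4 libraries, labelled as biological replicates. No label ties a replicate to an animal, so p-values of tests on libraries measure the spread between these libraries, which may be technical. Contrasts between kinds of cells were fitted on sums per experiment, so their p-values measure the spread between experiments.

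Control cells came from C57BL/6-Pthtm1(P2A-tdTomato)/+ mice, labelled male at 8 weeks in control experiment 1 and female at 11 weeks in control experiment 2. Mouse-host cells came from Gcm2-/- animals of a BDF1B6 background that had received Pth-tdTomato mouse ESCs, at 9 weeks, with experiments 1 to 3 labelled female and experiment 4 male. Rat-host cells came from neonatal Gcm2-/- Wistar rats that had received the same kind of ESCs, with sex unknown. Grafted cells carried the strain label of the mouse-host cells and were labelled male at 12 weeks. All of the groups therefore carried the Pth reporter, and all of the ESC-derived groups came from hosts without Gcm2, a transcription factor gene needed to form the gland. Picking on the reporter selects cells with an active Pth gene.

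Potassium channels let potassium ions leave the cell and so hold or restore its negative membrane voltage. The inward rectifiers (Kcnj) and two-pore channels (Kcnk) pass current near rest, and the voltage-gated channels (Kcna to Kcnd, Kcnh and Kcnq) open on depolarisation. The calcium- or sodium-activated class (Kcnma, Kcnn, Kcnt and Kcnu) is named for members that open when those ions rise inside. Kcnu1 was placed in it by symbol, which does not say that it opens in this way. Silent subunits (Kcnf, Kcng, Kcns and Kcnv) form no working channel alone but change the gating of other voltage-gated channels when they assemble with them, and accessory proteins (Kcnab, Kcne, Kcnip, Kcnmb and Kcnrg) line no pore. Parathyroid cells release hormone when extracellular calcium falls, sensed by the calcium-sensing receptor.

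The shared feature of pore-lining members is a selectivity filter, a short loop whose backbone strips water from potassium. The stretches below show it for the 6 pore-type members on which the results turn, from GENCODE M21 transcripts (build GRCm38), 5′ to 3′ on the coding strand, with the 5 codons of the filter in capitals.

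Kcng4: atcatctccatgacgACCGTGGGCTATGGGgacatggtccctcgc

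Kcna1: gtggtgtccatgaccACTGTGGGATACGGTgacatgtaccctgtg

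Kcnh3: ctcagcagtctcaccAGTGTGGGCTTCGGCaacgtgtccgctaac

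Kcnj2: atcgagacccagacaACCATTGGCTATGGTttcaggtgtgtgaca

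Kcnj15: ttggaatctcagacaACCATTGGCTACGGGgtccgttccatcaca

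Kcnk1 pore 1: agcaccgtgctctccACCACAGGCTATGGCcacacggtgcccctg

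Kcnk1 pore 2: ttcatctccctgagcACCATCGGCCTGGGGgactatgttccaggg

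The Kcng4 stretch lies at chr8:119625895-119625939 on the minus strand, in exon 3 of the 3 exons of transcript Kcng4-201, and encodes a filter that starts at residue 416 of 506. The Kcna1 stretch lies at chr6:126642213-126642257 on the minus strand, in the only exon of Kcna1-202. The Kcnj2 stretch (chr11:111072192-111072236) and the Kcnj15 stretch (chr16:95295965-95296009) are both on the plus strand, in the last exon of their transcripts. That of Kcnh3 is in exon 8 of 15 at chr15:99232914-99232958 on the plus strand. The second Kcnk1 stretch is in exon 2 of 3 at chr8:126025314-126025358 on the plus strand, and the first runs across the junction of exons 1 and 2.

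Silent as a channel on its own, Kcng4 still encodes threonine, valine, glycine, tyrosine and glycine, the same 5 residues as Kcna1. Both inward rectifiers carry isoleucine in place of valine. Kcnh3 has serine first and phenylalanine in the fourth place, and the second pore of Kcnk1 has leucine there. A search of the translated longest coding sequence for serine or threonine, then valine, isoleucine or threonine, then glycine, then tyrosine, phenylalanine or leucine, then glycine found a match in 70 of 94 Kcn genes (74.5%). The same search matched 218 of 21866 protein-coding genes (0.997%). It matched 0 of 17 accessory members, 23 of 30 voltage-gated members and every member of the other classes, with 2 or more matches in 14 of 14 two-pore genes.

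The search also showed which reads came from transcripts that encode a filter. Of 40 members with a filter and at least 1 read, 36 had at least 70% of their reads on transcripts that encode it. There were 3 members with under 10%. Kcnu1 had 0%, with its reads mostly on the 381-residue Kcnu1-202. Kcnk4 had 1.01%, with 70.1% of reads on Kcnk4-205, whose annotated coding part has 63 residues, and Kcna6 had 3.94%, with 73.0% on a transcript annotated for nonsense-mediated decay. Kcng4, Kcna1, Kcnj2 and Kcnj15 had 100%.

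Depth was 29471254 to 32264864 reads in the 4 libraries of control experiment 1 and 9470744 to 15098391 in the other 28. A pair of libraries stood apart by fibroblast markers. The 6 markers summed to 3109 counts scaled to library size (CPM) in replicate 3 of control experiment 2 and 2312 CPM in replicate 4 of mouse-host experiment 2, against at most 410 CPM, in graft replicate 1, among the others. The 5 parathyroid markers (Pth, Gcm2, Casr, Chga and Gata3) were read in the rat-host and graft experiments, and their sum was 294000 to 345600 CPM in control libraries. The 7 neuron markers, which matter for a family used heavily by neurons, summed to at most 7.42 CPM in any control library and 0.154 CPM in any mouse-host library. CPM values were scaled by TMM and compare libraries, while TPM also corrects for transcript length and compares genes.

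Native parathyroid cells used few of the family. Of the 94 members, 38 had no read in any library, 22 had reads but stayed below 1 TPM, and 34 reached 1 TPM somewhere. Taking at least 1 TPM in at least 5 of the 8 control libraries as expressed, 7 members (7.45%) were expressed, against 44.6% of 21743 protein-coding genes by the same rule. Those at or above 1 TPM in 8 of 8 control libraries were Kcng4, Kcnk1, Kcna1, Kcnj2 and Kcnh3. Just inside the threshold stood Kcnab3 and Kcnk4, in 6 of 8 each. Just outside it stood Kcnn1 in 4 and Kcnn2 and Kcnh2 in 3 each. The 7 members held 95.05% of summed Kcn TPM in control experiment 1 and 92.8% in control experiment 2.

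**Figure D1:**
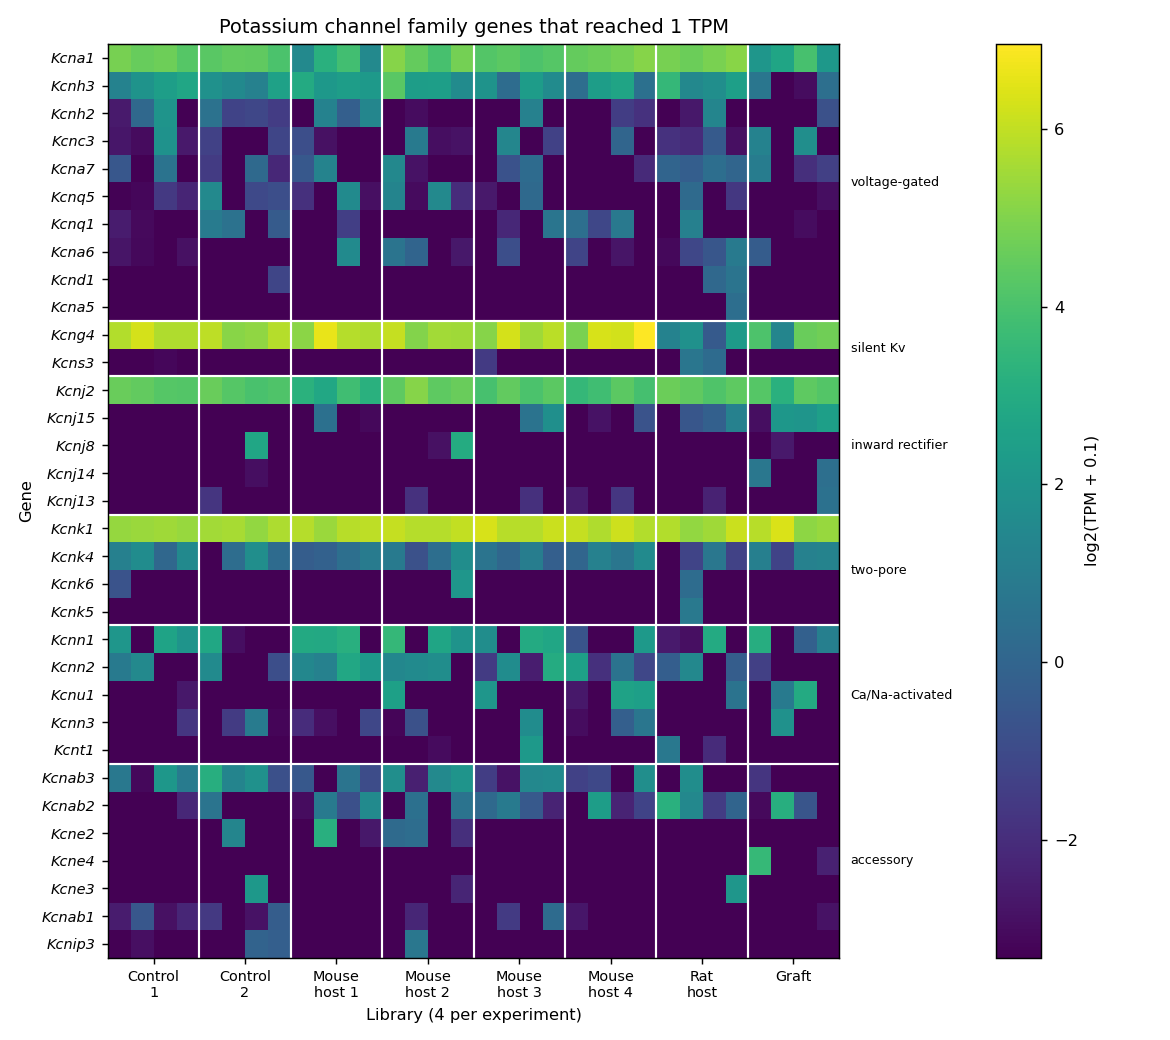
Level of reported members that reached 1 TPM in at least 1 library, as log2(TPM + 0.1), with 1 row per gene ordered by class and 1 column per library, 4 per experiment. Kcng4, Kcnk1, Kcna1, Kcnj2 and Kcnh3 form near-continuous bright rows, Kcng4 darkens in the rat host, and most other rows are lit in few libraries.

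The leading members in control cells were a silent subunit and a two-pore channel. Kcng4, which encodes the silent subunit Kv6.4, had 59.9 ± 12.8 TPM (SD, n = 4) in control experiment 1 and 47.3 ± 13.2 TPM in control experiment 2. Kcnk1, which encodes the weakly rectifying two-pore channel TWIK1, had 42.0 ± 1.69 and 46.2 ± 5.14 TPM. Next came Kcna1, the delayed rectifier Kv1.1, with 24.1 ± 4.12 and 20.0 ± 2.76 TPM, and Kcnj2, the strong inward rectifier Kir2.1, with 21.0 ± 2.97 and 19.0 ± 3.49 TPM. Kcnh3, a voltage-gated subunit of the ether-à-go-go group, was lower, at 4.51 ± 1.88 and 3.62 ± 1.60 TPM.

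Whether a member differed among the 8 experiments was tested on the libraries with edgeR's quasi-likelihood F-test and Benjamini-Hochberg adjustment over all genes. Of 24 members tested, 4 were called at an adjusted p below 0.05, against 10.9% of all genes (1433 of 13135). They were Kcng4 (adjusted p = 4.68e-05), Kcna1 (0.00500), Kcnj2 (0.0113) and Kcnj15 (0.0272). A count of 4 in 24 beside that background is no statement about the family as a whole.

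Kcng4 was high in native and mouse-host cells, low in grafted cells and lowest in rat-host cells. Its levels in control experiment 1 were 226, 312, 204 and 209.6 CPM, and in control experiment 2 they were 221, 134, 154 and 216 CPM. Mouse-host libraries ran from 119 to 462 CPM, with experiment means of 238 ± 109 (SD, n = 4), 168 ± 46.3, 204 ± 66.1 and 292 ± 133 CPM. The mouse-host range thus reached beyond the control range of 134 to 312 CPM at both ends.

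In rat-host cells the 4 libraries had 6.71, 10.4, 0.881 and 13.97 CPM, from 92, 147, 12 and 207 reads. Every one of them lay below every control and mouse-host library. Grafted cells had 65.6, 10.4, 105 and 123 CPM. Each graft library was below every control library, but the graft range met that of the rat host at its low end, in replicate 2, and that of mouse-host experiment 2 at its high end. In pools of cells, fewer cells with a transcript and less of it per cell cannot be told apart.

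**Figure D2:**
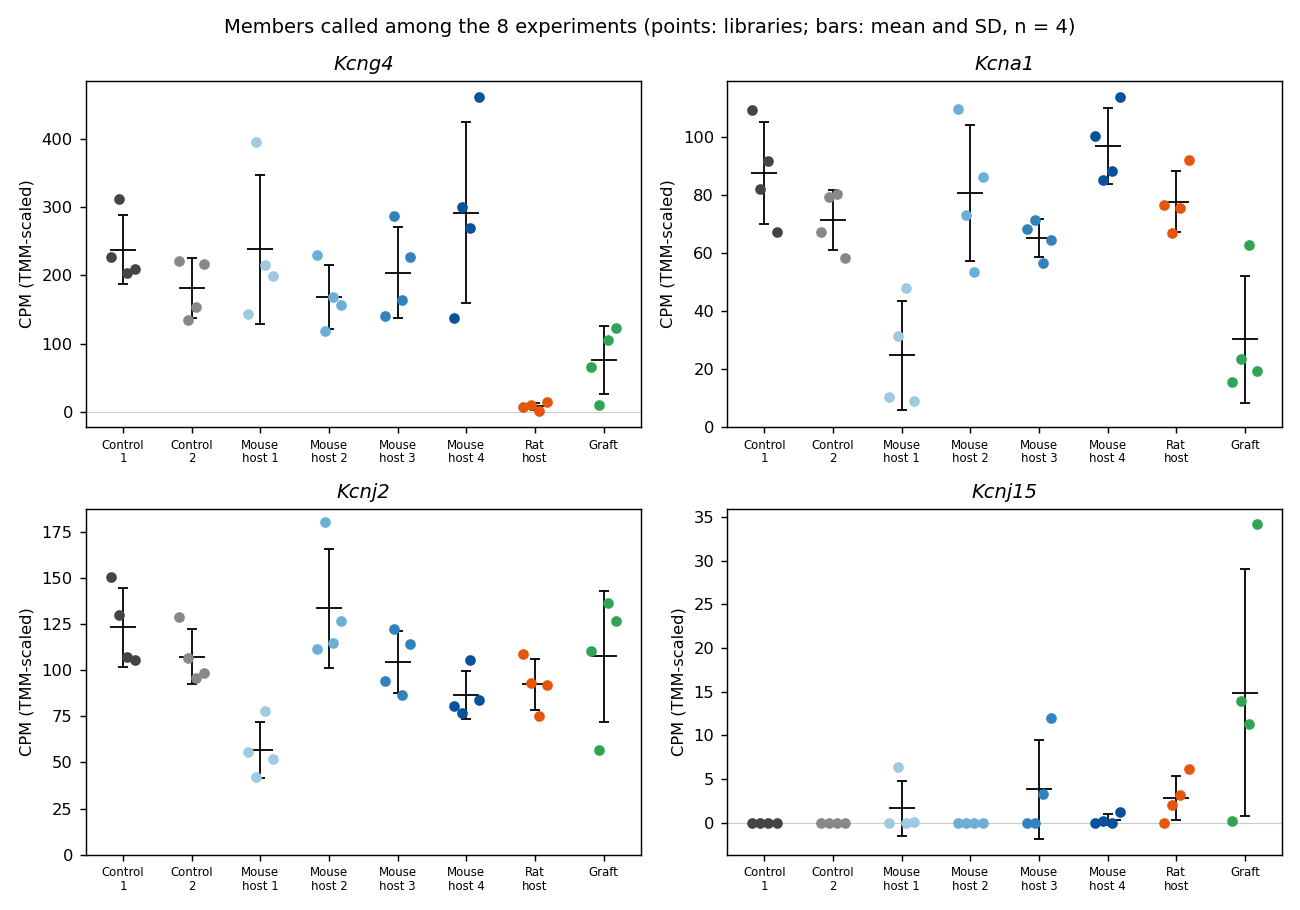
CPM per library for the 4 members called among the 8 experiments, with points for libraries and bars for mean and SD (n = 4). Kcng4 is lowest in the rat host, Kcna1 and Kcnj2 dip in mouse-host experiment 1, and Kcnj15 is at 0 in all control libraries and highest in the graft.

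Kcna1 was low in mouse-host experiment 1 and in grafted cells. In mouse-host experiment 1 the libraries had 10.4, 31.5, 48.1 and 8.78 CPM, and in the graft 15.4, 23.5, 62.6 and 19.4 CPM. The other 6 experiments ran from 53.6 to 114 CPM, so mouse-host experiment 1 lay wholly below them and the graft overlapped them through replicate 3.

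Control libraries had 109, 82.0, 91.5 and 67.3 CPM in experiment 1 and 67.3, 79.5, 80.4 and 58.4 CPM in experiment 2. The remaining means were 80.7 ± 23.5, 65.1 ± 6.46 and 96.9 ± 13.0 CPM in mouse-host experiments 2, 3 and 4. Rat-host cells had a mean of 77.7 ± 10.6 CPM of Kcna1 (libraries 76.6, 66.7, 75.4 and 92.1 CPM), inside the control range.

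Kcnj2, whose product sets the resting voltage in many excitable cells, was also lowest in mouse-host experiment 1. Its libraries there had 55.7, 41.9, 78.1 and 51.8 CPM, a mean of 56.9 ± 15.3 CPM. The highest mean was in mouse-host experiment 2, 133 ± 32.1 CPM, from 112, 181, 115 and 127 CPM, and these ranges did not overlap. Control means were 123 ± 21.4 and 107 ± 15.1 CPM, mouse-host experiments 3 and 4 had 104 ± 16.8 and 86.7 ± 12.9 CPM, the rat host 92.4 ± 13.8 CPM and the graft 107 ± 35.6 CPM. Neighbours in the order of these means overlapped in range.

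Kcnj15, the inward rectifier Kir4.2, had no read in any of the 8 control libraries. Grafted cells had reads in 4 of 4 libraries (0.159, 13.9, 11.3 and 34.1 CPM) and rat-host cells in 3 of 4 (0, 1.98, 3.16 and 6.14 CPM). In mouse hosts 6 of 16 libraries had reads, at most 12.0 CPM, in experiment 3, and none in experiment 2. Against a floor of 3 reads over the control arm, the graft was at least 818-fold higher and the mouse-host arm at least 89.6-fold higher. Both bounds rest largely on 1 library. Graft replicate 4 held 388 of the 705 graft reads, and without it the bound was 479.9-fold. Replicate 4 of mouse-host experiment 3 held 175 of the 297 mouse-host reads, and without it the bound was 39.9-fold. The call among the 8 experiments was lost without graft replicate 4 (adjusted p = 0.0563, edgeR's quasi-likelihood test). Kcnj15 exons overlap the opposite-strand Gm49643, and whether counting used strand is not stated in the labels.

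The remaining expressed members were not called among the 8 experiments. Kcnk1 was the steadiest, with 54.6 to 180 CPM over all 32 libraries (adjusted p = 0.144 by edgeR's quasi-likelihood F-test). Its control libraries had 74.0, 77.9, 79.2 and 68.5 CPM in experiment 1 and 67.6, 70.2, 71.2 and 96.8 CPM in experiment 2. Mouse-host libraries had 70.04 to 136 CPM, rat-host libraries 64.0, 54.6, 59.2 and 82.9 CPM, and grafted libraries 112, 180, 76.1 and 70.01 CPM. The 180 CPM of graft replicate 2 stood above every other library, and that library had the lowest Kcng4 of the graft.

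Kcnh3 had means of 17.2 ± 6.87 and 11.0 ± 1.89 CPM in control cells, 10.1 to 28.6 CPM in the mouse-host experiments, 15.4 ± 11.7 CPM in the rat host and 2.88 ± 3.28 CPM in the graft. Graft libraries had 5.81, 0, 0.0922 and 5.63 CPM, below all control libraries, although the mouse-host range reached down to 4.08 CPM. Kcnh3 shares exon positions with the opposite-strand gene Mcrs1. The adjusted p among the 8 experiments was 0.304 with edgeR's quasi-likelihood F-test.

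Kcnab3, a beta subunit that binds voltage-gated channels, had 4.35 ± 3.83 and 8.23 ± 7.19 CPM in control cells, 1.33 to 3.88 CPM on average in the mouse-host experiments, 1.29 ± 2.58 in the rat host and 0.0995 ± 0.199 in the graft. Its libraries ran from 0 to 18.03 CPM, and 51.6% of its reads were on protein-coding transcripts. It overlaps Kcnab3os on the opposite strand. Kcnk4, the mechanosensitive two-pore channel TRAAK, rested on 297 reads in all libraries, with means of 0.126 to 1.37 CPM. Over all libraries 70.1% of its reads were on a short transcript without a filter, as given above. Kcnk4 exons overlap those of Catsperz on the same strand. Its place among the expressed members is therefore uncertain.

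**Figure D3:**
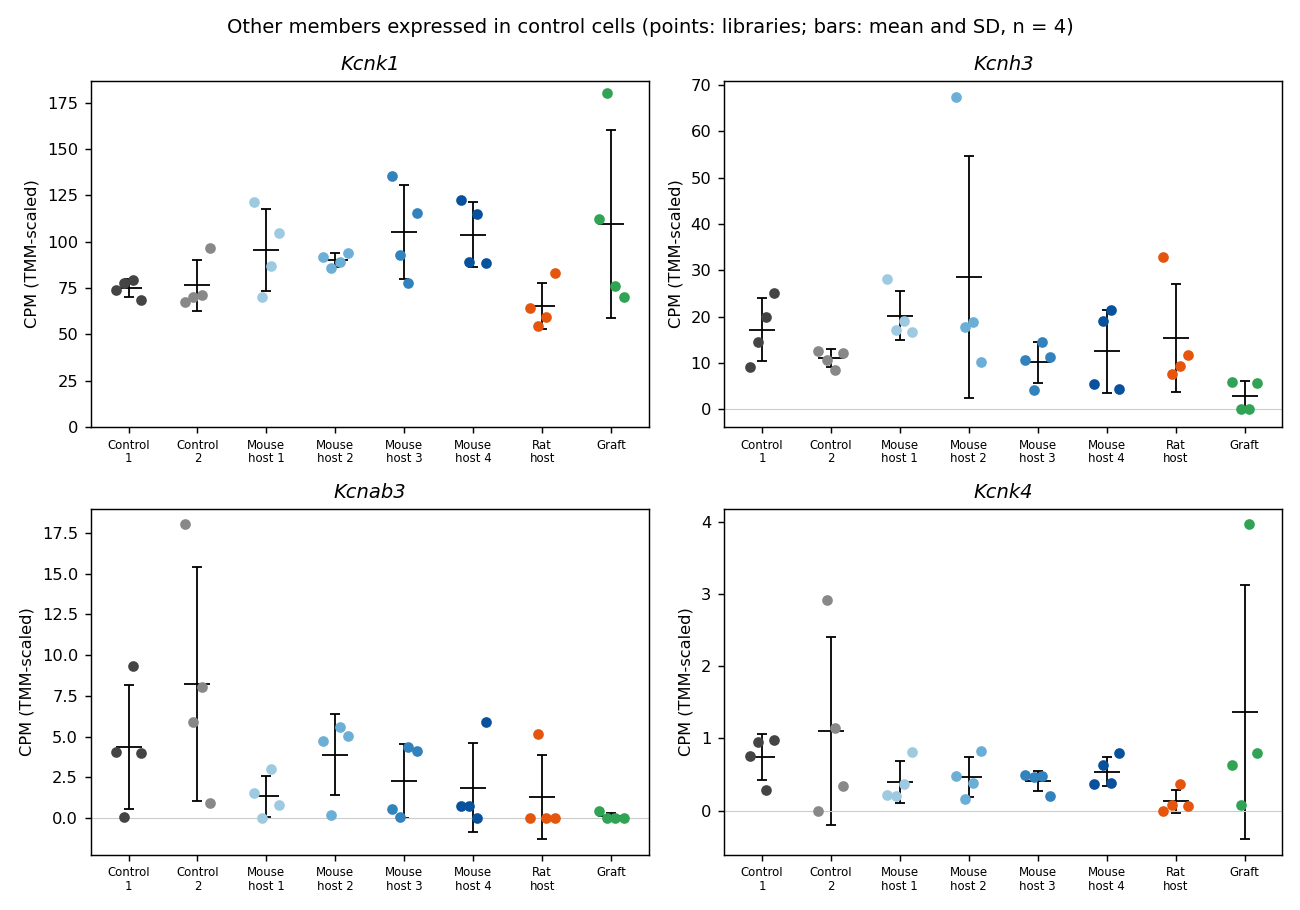
CPM per library for the other 4 members expressed in control cells, with points for libraries and bars for mean and SD (n = 4). Kcnk1 stays within 54.6 to 180 CPM, Kcnh3 and Kcnab3 are low in the graft, and Kcnk4 stays below 4 CPM.

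The first arm comparison asked whether ESC-derived cells of mouse hosts carry the native set. Counts were summed per experiment and fitted with 1 coefficient per arm, so that 4 mouse-host experiments stood against 2 control experiments. None of 41 members was called by edgeR's quasi-likelihood test, against 0% of all genes (0 of 15698, with 4.4% of genes and 5 members at an unadjusted p below 0.05). The smallest adjusted p of any gene was 0.892. DESeq2 called 2 of 56 members, Kcnj15 and Kcna6, against 0.741% of all genes it gave a p-value (146 of 19709).

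For Kcng4 the log2 fold change, mouse host over control, was 0.12 (SE 0.23), and its sign changed in 3 alternatives. Kcna1 had -0.26 (SE 0.45), Kcnj2 -0.27 (SE 0.30) and Kcnk1 0.38 (SE 0.15). Kcnk1 was among the 5 at an unadjusted p below 0.05, with an adjusted p of 0.892 by edgeR's quasi-likelihood test, and its experiment means were 90.1 to 105 CPM in mouse hosts against 74.9 and 76.4 CPM in controls. Kcna6, the voltage-gated subunit Kv1.6, had 274 reads in 7 of 16 mouse-host libraries against 11 in 3 of 8 control libraries. Over all libraries together 73.0% of its reads were on the transcript annotated for decay, and its exons overlap Gm26673 on the opposite strand. Kcnu1, known as a sperm potassium channel, had 241 reads in 5 of 16 mouse-host libraries against 2 reads in 1 of 8 control libraries. That was a ratio of 109 (95% counting interval 29.9 to 905, counting error only). The spread between mouse-host libraries was larger than the ratio itself, with an SD of 194 on that scale. None of the Kcnu1 reads were on a transcript that encodes a filter.

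In the comparison of the rat host with the mouse host, host species and age (neonate against 9 weeks) cannot be told apart. Kcng4 was the 1 member called of 41, against 0.643% of all genes (101 of 15698). Its log2 fold change was -4.75 (SE 0.42, adjusted p = 0.00833 by edgeR's quasi-likelihood test), where the median over all genes was -0.03. It was lower in 4 of 4 rat-host libraries than in every mouse-host library. The rat host has 1 experiment and is taken to vary as much between experiments as the rest do.

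The other leading members did not pass the test in that comparison. Kcna1 had a log2 fold change of 0.27 (SE 0.57), Kcnh3 -0.19 (SE 0.64) and Kcnk1 -0.54 (SE 0.20, unadjusted p = 0.0282 in the fit over all genes by edgeR). For Kcnj2 it was 0.00 (SE 0.39). Its rat-host mean of 92.4 CPM lay inside the 56.9 to 133 CPM of the mouse-host means. In all 5 members, Kcng4 included, had an unadjusted p below 0.05, beside 11.6% of all genes.

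Some of the marker lists had these values in the same contrast. The 5 cycling-cell markers (Mki67, Top2a, Ccna2, Ccnb1 and Cdk1) were all higher on average in the rat host, with sums of 46.8 to 1160 CPM against 0 to 518 CPM in mouse hosts. The 5 parathyroid markers summed to 157300 to 177100 CPM against 263900 to 363800 CPM, with 1 of 5 higher and none at 0. Fibroblast markers reached 11.9 CPM at most in the rat host, and 6 of 7 neuron markers were at 0 there. The 5 T cell markers summed to 9.69 to 36.7 CPM against 0 to 36.9 CPM in mouse hosts, with 1 of 5 higher. Skeletal muscle markers summed to 0 to 1.76 CPM against 0 to 50.1 CPM. The part of these in the Kcng4 result was not tested. Kcng4 was called in the same direction when either fibroblast-marked library, or both, was left out.

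Grafted cells were compared with mouse-host cells of the same strain label, though age and, for 3 of the 4 experiments, labelled sex differ as well. None of 41 members was called by edgeR's quasi-likelihood test, against 0.115% of all genes (18 of 15698). At an unadjusted p below 0.05 there were 6 members, beside 12.4% of all genes. Kcng4 had a log2 fold change of -1.65 (SE 0.34, adjusted p = 0.128), with an adjusted p of 4.16e-05 by DESeq2 and 0.0262 by limma voom. In 7 of 10 such alternatives Kcng4 was not called. Nor was it in any of 32 fits without 1 library (adjusted p from 0.0601 to 0.184 by edgeR's quasi-likelihood test). Without 1 experiment, its log2 fold change was -1.78 to -1.50. Kcnh3 had -2.65 (SE 0.77, adjusted p = 0.229) and Kcnn2, a small-conductance calcium-activated channel, -4.78 (SE 1.23, adjusted p = 0.191), both by edgeR's quasi-likelihood test.

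The Kcnn2 difference had 10 reads in 1 of 4 graft libraries on one side and 1066 reads in 15 of 16 mouse-host libraries on the other. Kcnab3 had 5 reads in the graft and a log2 fold change of -4.48 (SE 1.41). The other 2 of the 6, Kcne4 and Kcnj14, were high in few libraries: 99.5% of the 386 Kcne4 reads were in graft replicate 1, which also held 410 CPM of fibroblast markers and 15.7 CPM of smooth muscle and pericyte markers. Control experiment 2 replicate 3 (3109 CPM of fibroblast markers) had 0 Kcne4 reads. Mouse-host experiment 2 replicate 4 (2312 CPM, with 33.0 CPM of smooth muscle and pericyte markers) also had 0. The part of such cells in the Kcne4 reads was not tested.

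**Figure D4:**
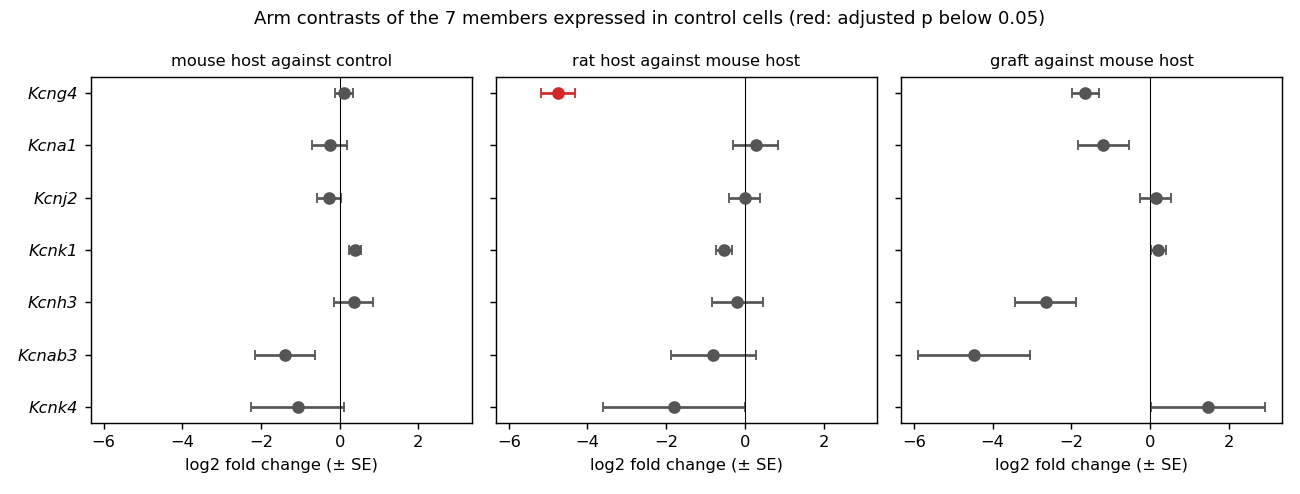
log2 fold change with SE of the 7 members expressed in control cells in each arm contrast, with red for an adjusted p below 0.05. The single red point is Kcng4 at -4.75 in rat host against mouse host, and the widest bars belong to the low-count Kcnab3 and Kcnk4.

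Differences inside an arm set the scale for these contrasts. Between the control experiments, which differ in labelled sex, age and depth, none of 12 members was called by edgeR's quasi-likelihood test, against 0.0173% of all genes (2 of 11544). None had an unadjusted p below 0.05, against 5.39% of all genes, and DESeq2 called 0 of 30 members, against 1.06% of all genes it gave a p-value (168 of 15923). The log2 fold change of Kcng4, experiment 2 over 1, was -0.38 (SE 0.20). Among the 4 mouse-host experiments, which share strain and age, 1 of 18 members was called, against 1.35% of all genes (165 of 12195). That member was Kcnj2 (adjusted p = 0.0326), followed by Kcna1 (adjusted p = 0.0694), both by edgeR's quasi-likelihood F-test. The Kcnj2 call lay near the threshold. It was lost in 9 of 16 fits that left out 1 library (adjusted p from 0.0234 to 0.104) and in 4 of 8 other alternatives (0.000134 to 0.105), the replicate block among them, all by models fitted across all genes. The log2 difference between its highest and lowest experiment, 1.24, was 1.06 to 1.42 in the fits without 1 library. Kcna1 was called without replicate 3 of mouse-host experiment 1 (adjusted p = 0.0181, edgeR's quasi-likelihood F-test). It was also called in 3 of 8 other alternatives, where the adjusted p ran from 0.00315 to 0.141, by models fitted across all genes.

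The make-up of the family's RNA differed between arms mainly by Kcng4. Silent subunits held 36.4% and 30.6% of summed Kcn TPM in the control experiments, 24.9% to 37.4% in the mouse-host experiments, 15.2% in the graft and 2.72% in the rat host. Two-pore channels, nearly all Kcnk1, held 27.2% and 31.7% in controls, 33.6% to 38.1% in mouse hosts, 41.0% in the rat host and 47.6% in the graft. Voltage-gated members held 19.3% and 17.8% in controls, 10.9% to 19.3% in mouse hosts, 9.38% in the graft and 31.4% in the rat host, with 22.9% in Kcna1 alone there. The graft's share lay close to the 10.9% of mouse-host experiment 1. Shares add to the whole, so a lower Kcng4 raises the others. The summed level itself was 164 ± 12.6 and 153 ± 20.8 TPM (SD, n = 4) in controls, 158 to 197 TPM in mouse-host means, 129 ± 20.0 TPM in the rat host and 118 ± 10.3 TPM in the graft. These totals also carry the shift that TPM scaling gives the rat host, described in the last section. Kcna1, for example, averaged 29.4 TPM in the rat host against 22.1 TPM in controls, but 77.7 against 79.5 CPM.

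**Figure D5:**
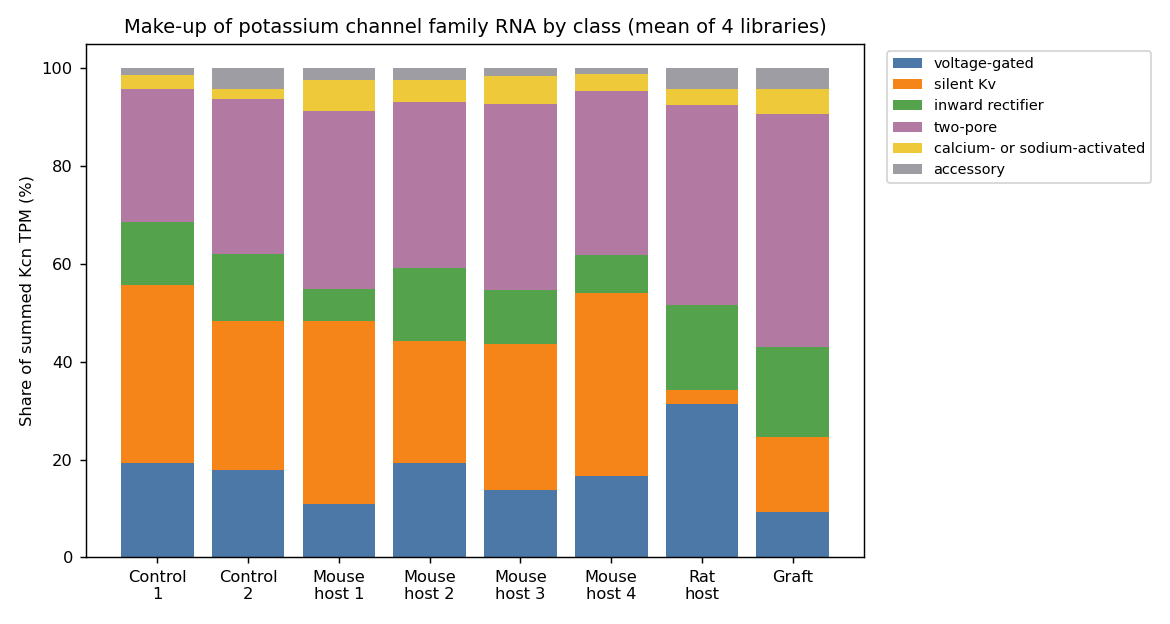
Share of summed Kcn TPM by class, in percent, as the mean of 4 libraries per experiment. The silent class, which is mainly Kcng4, takes 24.9% to 37.4% of the bar in control and mouse-host experiments and 2.72% in the rat host.

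The 3 highest members by mean TPM differed between arms as well. Kcng4 and Kcnk1 were the top pair in every control and mouse-host experiment, with Kcna1 or Kcnj2 in the next place. In the rat host the order was Kcnk1 (51.8 TPM), Kcna1 (29.4 TPM) and Kcnj2 (21.2 TPM), with Kcng4 at 2.80 ± 1.75 TPM. In the graft it was Kcnk1 (54.8 TPM), Kcng4 (17.5 TPM) and Kcnj2 (17.0 TPM). Kcnk1 was thus the one member of the 4 that was among the 3 highest in every experiment, where Kcng4 missed that place in the rat host.

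The other 27 members that reached 1 TPM did so in few pools. The median was 3 of 32 libraries, 6 members did so in a single library, and 15 did so in no control library. In 11 of them over 50% of all reads came from 1 library. The calcium-activated channels Kcnn1 and Kcnn2, SK1 and SK2, were the most widespread, in 17 and 15 libraries, and Kcnab2, a beta subunit, reached the level in 11. Kcnn1 had 4.64 CPM on average in controls and 6.86 CPM in mouse hosts.

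Among these, Kcnj8 was read mainly in the libraries with fibroblast markers. Kcnj8, the pore subunit Kir6.1 of ATP-sensitive channels and known for its place in vascular mural cells, reached 1 TPM in 2 libraries, with 6.70 TPM in control experiment 2 replicate 3 and 7.91 TPM in mouse-host experiment 2 replicate 4, those with 3109 and 2312 CPM of fibroblast markers. Of the 27 members, 4 had their highest level in that pair, among them Kcnj8, Kcne3 and Kcnk6. The share of all genes that peak there was not counted. Kcne3, an accessory subunit, had all of its 47 control reads in control experiment 2 replicate 3, but also 29 reads in rat-host replicate 4. Kcnk6 had 0 reads in control experiment 2 replicate 3 and 69 in control experiment 1 replicate 1, where fibroblast markers were at 0 CPM. The part of fibroblasts or mural cells in these values was not tested. Leaving out both libraries gave 8 expressed members in control cells in place of 7 and the same counts of members called in every comparison except that among mouse-host experiments, where it was 0.

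Of 48 partner genes for potassium handling (pump subunits, KCl cotransporters, KATP regulators, HCN channels, calmodulins and kinases that act on them), 20 were expressed in control cells by the same rule. Wnk1, a kinase that controls ion cotransport, reached 1 TPM in 8 of 8 control libraries, whereas the KATP regulator Abcc8 and the 4 Hcn genes did so in none. Among the 8 experiments 3 of 29 tested were called by edgeR's quasi-likelihood F-test, among them Wnk1 (adjusted p = 0.00419), against the 10.9% of all genes given above. In the arm contrasts 0 of 36 were called in each. The shares of all genes were 0% for mouse host against control, 0.643% for rat host and 0.115% for graft against mouse host. At an unadjusted p below 0.05 by edgeR there were 4, 1 and 11 of 36 in that order, beside 4.4%, 11.6% and 12.4% of all genes. Among mouse-host experiments 0 of 26 were called, against 1.35% of all genes.

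Wnk1 had its highest mean in the graft, 62.5 ± 9.19 CPM, and its graft libraries overlapped with those of control experiment 2 and mouse-host experiment 2 but with no other experiment. Its lowest mean, 12.0 ± 3.26 CPM, was in mouse-host experiment 1, the experiment in which Kcna1 and Kcnj2 were lowest.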

How the data were processed

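Per the submitters' processing notes, the authors ran Salmon and GRCm39 was the build. The version and the annotation used are not stated there. The deposited tables hold an expected count and a TPM per transcript and library. Of 116747 transcripts, 115685 matched GENCODE M21 (GRCm38) by identifier without version. The other 1062 held 0.493% of reads and were left out. Coordinates and sequences are those of GRCm38 and were read from M21 transcripts, not from the files.

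Expected counts were summed per gene and rounded. Tests used edgeR 4.0.16 in R 4.3.3 (quasi-likelihood, TMM, filterByExpr, Benjamini-Hochberg over all genes tested, adjusted p below 0.05). Differences among experiments were tested on libraries. Arm contrasts were tested on 8 experiment sums with 4 residual degrees of freedom, since libraries of an experiment share sex and age labels. DESeq2 1.42.0, limma 3.58.1 on log2(TPM + 0.1) or log2(TPM + 1), other scaling and filters, thinning to 9428502 reads and left-out libraries or experiments served as alternatives. The procedure was also run on simulated counts in which every gene had the same spread. That setting does not cover members whose reads lie in few libraries, and its outcome is not given here. No molecular identifiers were used, so floors (3 reads over an arm) and intervals cover counting error only.

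Some genes that the rule names are not reported here. Named genes are members expressed in control cells, called in any comparison, or among the 3 highest by TPM in an experiment, and called partner genes. Members named beyond that rule (Kcnn1, Kcnn2, Kcnh2, Kcnab2, Kcna6, Kcnu1, Kcnj8, Kcnj14, Kcnk6, Kcne3 and Kcne4) were chosen after their values were seen. Members, lists and tests were chosen with earlier results of these data known.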

Additional observations from a re-analysis of the deposited data

Results flagged for a closer look

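Within single experiments, the highest or lowest library of a member lay far from the other 3 in 8 of 54 groups of 4 libraries, where chance gives about 1 in 20 for normally distributed values. The rate for counts at or near 0, as in most of the Kcnj15 and Kcnab3 groups here, was not tested. Kcnj15 had 6.40 CPM in replicate 2 of mouse-host experiment 1, where the others had 0 to 0.0813 CPM. It had 1.24 CPM in replicate 4 of mouse-host experiment 4, where the others had 0 to 0.179 CPM. Kcnab3 had 0.1596 CPM in replicate 2 of mouse-host experiment 2, against 4.74 to 5.58 CPM. It had 5.91 CPM in replicate 4 of mouse-host experiment 4, against 0 to 0.730 CPM, and 5.16 CPM in replicate 2 of the rat host, against 0 in the others. Kcnh3 had 67.4 CPM in replicate 1 of mouse-host experiment 2, against 10.2 to 18.9 CPM, and 32.8 CPM in replicate 1 of the rat host, against 7.63 to 11.7 CPM. Kcnk1 had 96.8 CPM in replicate 4 of control experiment 2, against 67.6 to 71.2 CPM. No Kcng4, Kcna1 or Kcnj2 library met this measure.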

How the results depend on the processing

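Kcng4 was called lower in the rat host than in the mouse host under each of the 48 alternatives run, with a log2 fold change of -5.22 to -3.98. Counts of members called moved as follows, each beside the share of all genes called in the same fit. Mouse host against control gave 2 of 56 with DESeq2 (0.741% of all genes) in place of 0. Rat host against mouse host gave 3 of 56 with DESeq2 (5.41%) and 5 of 41 with limma on log2(TPM + 0.1) and on log2(TPM + 1) (3.34% and 3.77%), in place of 1. Graft against mouse host gave 5 of 56 with DESeq2 (6.33%), 4 and 2 of 41 with limma on those scales (1.86% and 1.65%), 3 of 24 with limma voom (2.41%) and 1 of 24 with libraries as independent and no replicate block (3.63%), in place of 0. Among 8 experiments no expression filter gave 7 of 56 (8.10%) and DESeq2 5 of 50 (13.5%), in place of 4. There, limma on log2(TPM + 0.1) and on log2(TPM + 1) gave 5 of 24 each (20.3% and 21.6%), and leaving out single libraries gave 3 to 5. Among mouse-host experiments DESeq2 gave 2 of 35 (4.74%), leaving out single libraries gave 0 to 2, and leaving out both fibroblast-marked libraries, an alternative chosen after seeing the data, gave 0, in place of 1. For why these counts moved, the cause was not tested. For Kcng4 in mouse host against control the log2 fold change of 0.12 became -0.034 with limma voom and -0.081 without control experiment 2, was below 0 without mouse-host experiment 4 too, and reached 0.35 without control experiment 1. For Kcne3 it was -6.03 and became 1.80 without control experiment 2, 1.75 without its replicate 3 (lowest of such fits -7.78, and -7.85 without mouse-host experiment 2) and 0 without both fibroblast-marked libraries, since all of its control reads are in that replicate. TPM scaling moved the median of all genes in rat host against mouse host by 0.30 on the log2 scale. The replicate numbers did not pair the libraries (median correlation -0.00764 over 112 same-numbered pairs); with the replicate block, 4 members were called among 8 experiments and 0 among mouse-host experiments. Expressed members numbered 5 to 8. With 4 residual degrees of freedom and 10 to 20 cells per pool, low members cannot be ranked.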
